A study of Mus musculus with 24 samples.

Results

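H3K27ac, the acetylation of lysine on histone H3 that marks active promoters and enhancers, was compared between limb buds deficient in Sox9 and control limb buds of mouse embryos. The Sox9-deficient side held 2 peak lists, titled Sox9null at embryonic stage E11.5 and Sox9cKO at E12.5, and the control side held 2 lists, titled Control at E11.5 and at E12.5. These 4 samples were chosen by their mark and titles out of 24 in the series, each from 1 library, so nothing was tested between conditions and the values describe these libraries. The deposited names of the lists of the 2 deficient samples are exchanged relative to the sample titles. With all 4 lists, each call of a region or gene sets both deficient lists against both controls, so it holds whichever name is right. Each deficient list is called by its title. Values of a single list, of pairs of lists and counts with 1 list left out follow the titles. The alleles, any Cre driver, the strain, whether fore or hind limbs were taken and how many embryos were pooled are not stated by the labels. Between the 2 deficient lists, stage and the kind of Sox9 loss cannot be told apart. In lists made from whole limb buds, fewer cells that carry the mark and less mark per cell cannot be told apart either.

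Sox9 is the transcription factor that commits limb mesenchyme to cartilage, and it works with its relatives Sox5 and Sox6 on enhancers of cartilage collagen and proteoglycan genes. The Sox9 gene lies between large gene deserts that hold enhancers acting over long distances, and its neighbour on the right is the zinc transporter gene Slc39a11. At the stages sampled, mesenchymal cells of the limb bud condense and start the cartilage programme.

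The lists held 28419 peaks (titled Sox9null) and 36937 peaks (titled Sox9cKO), against 36045 peaks (control E11.5) and 32821 peaks (control E12.5). To compare ranks, the 28419 peaks with the highest deposited score were taken from each list, and each peak was given its percentile, near 100 for the highest score and near 0 for the lowest. A score of 3100 was shared by 2772 peaks of the list titled Sox9cKO and by 702 of the list titled Sox9null, against 1588 (control E11.5) and 1325 (control E12.5). These tied peaks stand at percentiles 94.6 (Sox9cKO), 98.6 (Sox9null), 96.7 (control E11.5) and 97.3 (control E12.5), so differences of a few points at the top carry no information. Limb mesenchyme genes were acetylated throughout, with Prrx1 at those tied values in each list. The forelimb gene Tbx5 had a strongest peak at percentile 0 (Sox9null) and 94.6 (Sox9cKO), against 96.7 (control E11.5) and 46.6 (control E12.5), while the hindlimb gene Tbx4 was at the tied values in every list. Of 24 genes of tissues other than the limb, 10, such as the liver gene Alb, had no peak in the top lists within the gene or 20 kb of it. The other 14 had one, with median percentiles of 81.2 (Sox9null), 76.0 (Sox9cKO), 75.8 (control E11.5) and 79.0 (control E12.5). Such a window can take in peaks of neighbouring genes, which holds for every gene value below.

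Peaks of the 4 lists that share at least 1 bp gave 39164 joined regions, and 18281 (46.7%) of them carried a peak in every list. Of the 6197 regions marked in exactly 2 lists, 585 (9.44%) were shared by the 2 deficient lists and 456 (7.36%) by the 2 controls. Another 2379 (38.4%) were shared by the list titled Sox9null and the E12.5 control, and 1947 (31.4%) by the list titled Sox9cKO and the E11.5 control. The pairs of the same stage by title shared fewer, 367 (5.92%) for Sox9null and the E11.5 control and 463 (7.47%) for Sox9cKO and the E12.5 control. The lists therefore resembled each other across the sides more than within them, in the pairs that the deposited names, not the titles, put at the same stage.

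Strong acetylation confined to one side was almost absent. A region was to be at percentile 50 or more in both lists of a side and either unmarked or at percentile 25 or less in both lists of the other. By this rule 0 of 39164 regions (0%) were high in both deficient lists, and 2 (0.00511%) were high in both controls. The first lies in the body of Scrn1, which encodes secernin (chr6:54553444-54555546, mm10), at percentiles 0 (Sox9null) and 4.51 (Sox9cKO), against 54.1 (control E11.5) and 57.7 (control E12.5). The second lies in the postsynaptic scaffold gene Homer2 (chr7:81653179-81655870), at 20.2 and 23.8 in the lists titled Sox9null and Sox9cKO, against 51.2 (control E11.5) and 55.6 (control E12.5). Just outside the rule stood a region near the transcription factor gene Bach2, at 49.8 (Sox9null) and 60.6 (Sox9cKO), against 0 (control E11.5) and 21.9 (control E12.5). On the control side the nearest were a region 80.7 kb from Gulp1, at 16.3 (Sox9null) and 9.11 (Sox9cKO), against 53.1 (control E11.5) and 49.3 (control E12.5), and a region of Slc39a11 described with Sox9.

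A pair of weaker rules, set after these counts were seen, describe what lies below that limit. With percentile 30 in place of 50 on the high side, 168 regions (0.429%) were high in both deficient lists and 136 (0.347%) in both controls. Asking instead that both lists of a side outrank both of the other by at least 10 percentile points gave 661 regions (1.69%) higher in both deficient lists and 519 (1.33%) higher in both controls, called ranked apart below. When complete lists of unequal length were ranked, the ranked-apart regions became 607 and 1025, so which side has more of them depends on the length of the lists. In the lists of equal length, a gap of any size above 0 was shown by 2931 regions (7.48%) in favour of the deficient lists and 2321 (5.93%) in favour of the controls. Of the ranked-apart regions, 132 of the 661 higher in the deficient lists had no peak at all in either complete control list, and 142 of the 519 higher in the controls had none in either complete deficient list. The rest had a weaker peak on the other side in at least 1 list.

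**Figure D1:**
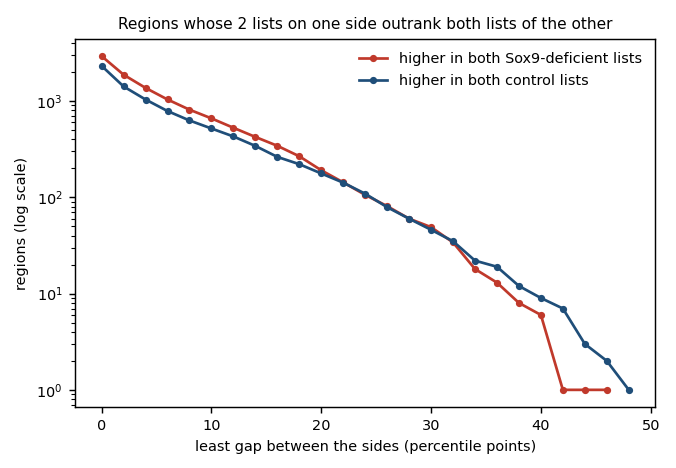
Number of regions (y axis, log scale) whose percentiles in both lists of one side exceed both of the other side by at least the gap on the x axis (percentile points), for regions higher in both Sox9-deficient lists (red) and in both control lists (blue). With a gap of 10 points there are 661 and 519 regions, with a gap of 30 points 49 and 46.

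The 15 regions with the largest gap in favour of the controls lay at genes of many kinds, among them 1 in Sox6 and 1 in Slc39a11, the neighbour of Sox9. None of the 15 held an annotated gene start, 9 lay in gene bodies, and 9 had no peak in either complete deficient list. Their percentiles were at most 9.19 in the deficient lists and between 37.6 and 57.7 in the controls. These regions were chosen for this difference, so their values are a description.

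After Scrn1, the largest gap was in Smarcc1, a subunit gene of the SWI/SNF chromatin remodeller (chr9:110204721-110207377). It had no peak in either deficient list, against percentiles 46.8 (control E11.5) and 56.8 (control E12.5). Also without a peak in the deficient lists were regions in Plekhm3 (56.4 in the E11.5 and 42.7 in the E12.5 control), in the lipase gene Mgll (42.6 in the E11.5 and 46.9 in the E12.5 control), in the glutamate transporter gene Slc1a3 (46.8 and 40.2) and in Stat5b, a cytokine signalling factor (37.8 and 42.0). Of the 15 regions, 3 lay more than 100 kb from a protein-coding gene, the nearest being Cd83, Lpp and Mgmt. The remaining ones lay in Arhgef1 and near Ggct, Nipsnap2 and Depdc1b.

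**Figure D2:**
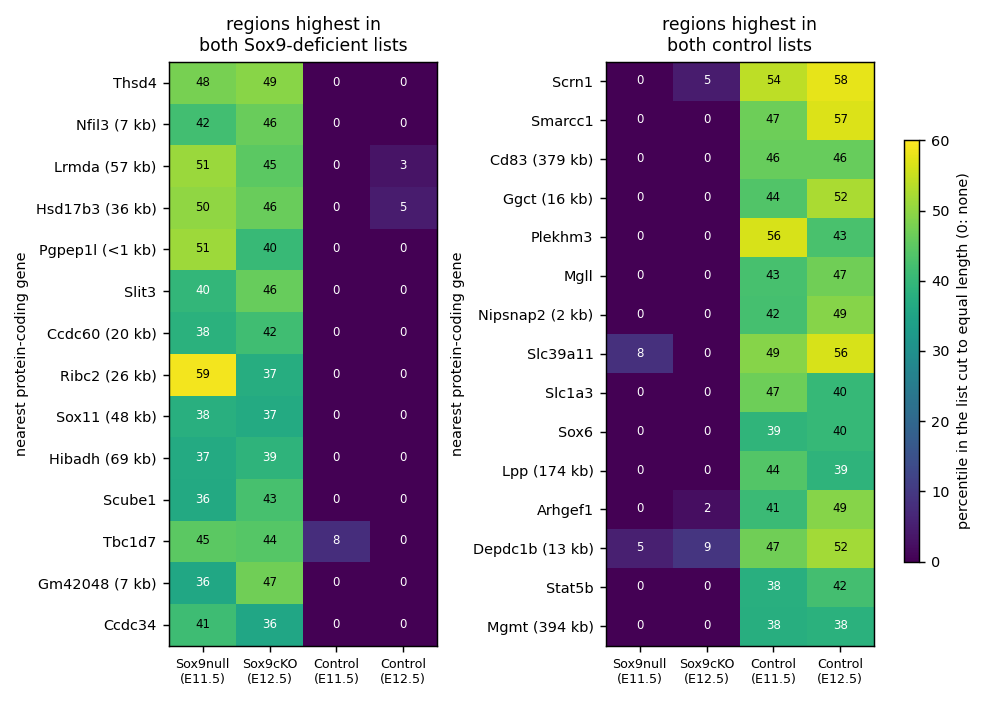
Percentile (colour and number, 0 for no peak among the top 28419) of 14 of the 15 regions with the largest gap in favour of the Sox9-deficient lists (left) and of the 15 in favour of the controls (right), in the 4 lists (x axis), named by the nearest protein-coding gene with its distance in kb where the region lies outside it. The high side lies between 35.5 and 58.8 on the left and between 37.6 and 57.7 on the right.

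Close to cartilage matrix genes, the regions ranked apart by score in the lists of equal length were all control-higher. Within 20 kb of 30 such genes lay 103 regions, of which 0 were ranked apart in favour of the deficient lists and 9 (8.74%) in favour of the controls, against 1.69% and 1.33% of all regions. These 9 lay at 8 genes. Around 29 chondrogenic regulator genes lay 220 regions, with 1 (0.455%) higher in both deficient lists and 9 (4.09%) higher in both controls, at 5 genes. Within 100 kb the split was less one-sided, with 4 deficient-higher and 11 control-higher of 262 regions at cartilage genes and 2 and 12 of 343 at regulators. A gap of any size above 0, within 20 kb, was shown by 7 deficient-higher and 20 control-higher regions at cartilage genes and by 10 and 26 at regulators. The gene lists were written with earlier results of these data known, regions at the same gene are not independent, and the shares are not a test. Leaving out any 1 list moved these counts. Without the list titled Sox9cKO the regulator split turned to 26 deficient-higher and 14 control-higher regions and the cartilage split was 10 and 11, while all regions split into 4054 and 1968. Without the E12.5 control the cartilage genes had 2 deficient-higher and 17 control-higher regions and the regulators 9 and 30. All regions then split into 2588 and 3568. Without the E11.5 control the splits were 4 and 40 at cartilage genes, 6 and 47 at regulators, and 2382 and 4512 over all regions. Without the list titled Sox9null they were 2 and 20, 12 and 24, and 3770 and 1725.

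The other gene lists held few regions ranked apart, and of all regions 1.69% were deficient-higher and 1.33% control-higher. Counts as small as those below cannot be told apart from these shares. BMP and joint genes had 0 deficient-higher and 1 control-higher of 115 regions, and limb patterning genes had 2 and 1 of 136. Condensation and adhesion genes had 1 and 1 of 87, growth plate and osteoblast genes 1 and 1 of 43, and tendon and connective tissue genes 1 and 1 of 56. Among markers of other cell types, skeletal muscle had 0 and 2 of 64, erythroid and macrophage 1 and 1 of 55, and endothelium, ectoderm, and nerve and glia 0 either way of 75, 64 and 22 regions. The control-higher erythroid and macrophage region lies in Runx1 and is also counted among the chondrogenic regulators, since Runx1 is in both lists. Housekeeping genes and genes of inactive tissues had 0 either way of 57 and 37 regions.

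**Figure D3:**
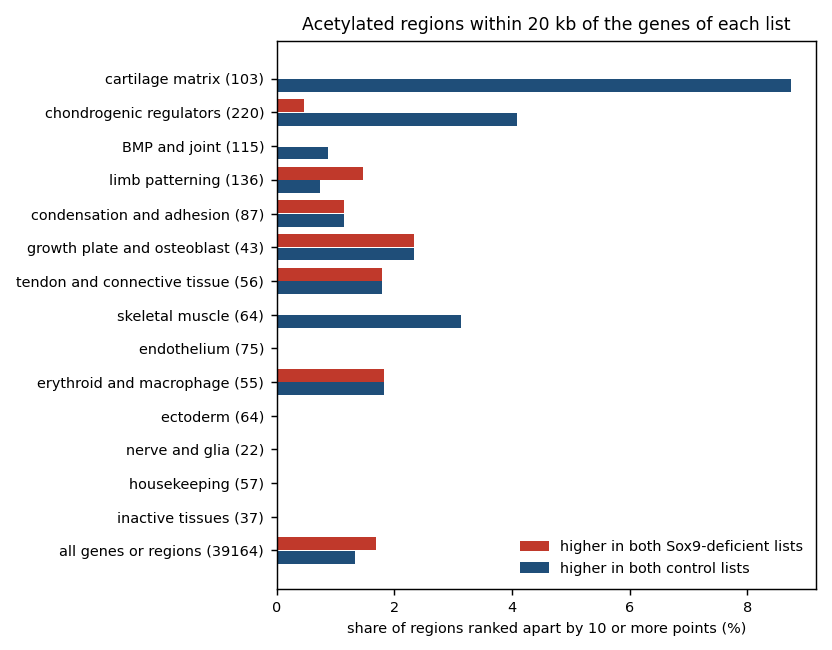
Share of the acetylated regions within 20 kb of the genes of each list (number of regions in brackets) that were ranked apart by 10 or more percentile points (x axis, %), higher in both Sox9-deficient lists (red) or in both control lists (blue). Cartilage matrix genes have 0% and 8.74%, chondrogenic regulators 0.455% and 4.09%, and all regions 1.69% and 1.33%.

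Sox5 and Sox6 encode the SOX proteins that bind cartilage enhancers beside SOX9. The widest gap in Sox5 (chr6:144054333-144058392) had percentiles of 0.329 (Sox9null) and 0 (Sox9cKO), against 37.5 (control E11.5) and 79.2 (control E12.5). Its peak spanned 891 bp in the list titled Sox9null and was missing from the complete list titled Sox9cKO, against 1246 bp (control E11.5) and 4060 bp (control E12.5). Both controls were thus far above both deficient lists, and they differed from each other as well. Sox5 had 3 control-higher regions of the 19 around it, the others at chr6:144038619-144040675 and chr6:144250488-144251825.

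Sox6 had 2 control-higher regions of 22. The first (chr7:115865223-115867184) was unmarked among the top peaks of both deficient lists, against percentiles 39.3 (control E11.5) and 40.1 (control E12.5), and the complete list titled Sox9cKO had a peak there with a score of 62.1, too low for its top 28419. The list titled Sox9null had a peak at percentile 8.91 just outside this region, starting 1.31 kb to the right of its centre. The second (chr7:115823520-115826849) stood at 7.36 (Sox9null) and 0 (Sox9cKO), against 27.1 (control E11.5) and 63.4 (control E12.5). It covers 1 of the 6 Sox6 start sites in the RefSeq promoter table (GRCm38.p6), which lies 216 kb inside the gene from its right end. That start is shown because its 300 bases hold both searched SOX core motifs, AACAAT 2 times and ACAAAG 2 times counting both strands, whereas the start of the cartilage gene Chad, also in a control-higher region, holds neither. Capitals mark the matches, which are letters in a window and not binding sites.

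Sox6 (chr7:115824661-115824960, minus strand): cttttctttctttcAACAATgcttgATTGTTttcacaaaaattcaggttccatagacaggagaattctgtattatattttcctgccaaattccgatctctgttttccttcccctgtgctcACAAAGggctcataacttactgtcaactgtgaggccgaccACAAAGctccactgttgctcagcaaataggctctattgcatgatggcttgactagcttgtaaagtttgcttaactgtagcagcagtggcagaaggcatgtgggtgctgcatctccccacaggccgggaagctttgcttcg

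Chad (chr11:94564797-94565096, plus strand): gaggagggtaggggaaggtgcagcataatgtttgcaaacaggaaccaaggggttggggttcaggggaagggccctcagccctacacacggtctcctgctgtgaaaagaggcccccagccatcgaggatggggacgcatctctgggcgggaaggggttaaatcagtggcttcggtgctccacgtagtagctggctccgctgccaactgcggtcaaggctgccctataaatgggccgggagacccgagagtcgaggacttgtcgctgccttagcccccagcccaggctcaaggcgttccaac

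The other regulator regions ranked apart were at Pax9, Runx1, Nfia and Nfib. Pax9, a sclerotome and skeletal regulator, had 2 control-higher regions of 4, one of them (chr12:56695550-56698552) at 24.2 (Sox9null) and 42.2 (Sox9cKO), against 54.4 (control E11.5) and 56.6 (control E12.5). A Runx1 region (chr16:92653096-92655549) stood at 19.2 (Sox9null) and 0 (Sox9cKO), against 43.2 (control E11.5) and 39.5 (control E12.5). At Nfia 1 region was control-higher, and the single deficient-higher regulator region lay in the related gene Nfib (chr4:82412031-82413639), at 34.6 (Sox9null) and 16.3 (Sox9cKO), against 0 in both controls.

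Among cartilage matrix genes the widest gaps were inside Cspg4, Wwp2, Matn4 and Col27a1. Cspg4, the gene of a chondroitin sulphate proteoglycan, had a region (chr9:56878733-56883739) with no peak in the list titled Sox9null and a peak of score 54.2 below the top peaks in the list titled Sox9cKO, against percentiles 36.2 (control E11.5) and 77.3 (control E12.5). In Wwp2, which hosts a cartilage microRNA, a region (chr8:107477679-107479904) had no peak in either complete deficient list, against 33.6 (control E11.5) and 66.9 (control E12.5). The peaks a few kb to its left were present in all 4 lists. The matrilin gene Matn4 had a region (chr2:164388323-164390130) at 0 (Sox9null) and 2.69 (Sox9cKO), against 36.3 (control E11.5) and 47.1 (control E12.5), and in the fibrillar collagen gene Col27a1 (chr4:63228282-63229919) the values were 0 (Sox9null) and 7.72 (Sox9cKO), against 41.2 (control E11.5) and 43.5 (control E12.5). These 4 regions were chosen for a gap between the sides, so that the sides do not overlap there is no separate result. The E12.5 control was the highest list in each.

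**Figure D4:**
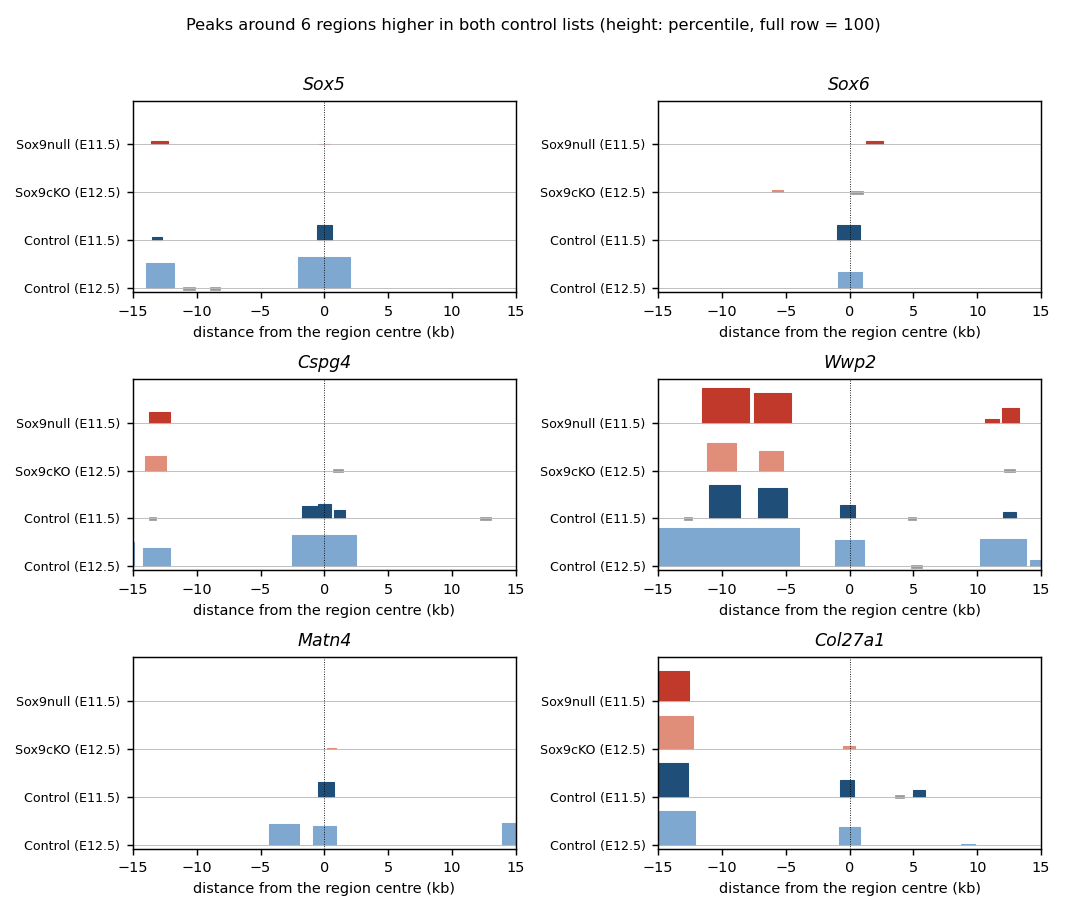
Peaks of the 4 lists within 15 kb of 6 control-higher regions (x axis, distance from the region centre in kb), at the genes Sox5, Sox6, Cspg4, Wwp2, Matn4 and Col27a1. The height of a box is the peak's percentile with a full row as 100, grey marks are peaks below the top 28419, and both control rows carry a box at the centre in every panel.

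Smaller gaps occurred at 4 further cartilage genes and at a second Wwp2 region. The start of Chad, which encodes the matrix protein chondroadherin, had no peak in either complete deficient list, against percentiles 28.7 (control E11.5) and 16.5 (control E12.5). At Chst11, a chondroitin sulphotransferase gene, a region had 0 in both deficient lists, against 14.9 (control E11.5) and 47.4 (control E12.5), and at the type IX collagen gene Col9a3 the values were 17.4 (Sox9null) and 0 (Sox9cKO), against 29.1 (control E11.5) and 47.5 (control E12.5). The region near Cytl1 lies in the neighbouring gene Stk32b, at 0 in both deficient lists, against 10.6 (control E11.5) and 11.2 (control E12.5).

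Called on their strongest peak alone, few cartilage genes separated the sides. Taking for each gene the highest percentile over the gene body plus 20 kb, 63 of 16184 genes with a peak (0.389%) had a strongest peak at least 10 points higher in both deficient lists than in both controls, and 57 (0.352%) had one at least 10 points lower. Matn4 was the only cartilage matrix gene called, at 0 (Sox9null) and 2.69 (Sox9cKO), against 36.3 (control E11.5) and 55.0 (control E12.5), and Pax9 the only regulator. The main cartilage collagen gene Col2a1 had 94.4 (Sox9null) and 94.6 (Sox9cKO), against 96.7 (control E11.5) and 97.3 (control E12.5), close to the tied values. Sox9 itself had 97.1 (Sox9null) and 94.6 (Sox9cKO), against 96.7 (control E11.5) and 97.3 (control E12.5), so the sides overlap. Acan, the aggrecan gene, had a peak among the top 28419 only in the list titled Sox9cKO, at 27.9, and the matrilin gene Matn1 had none in any list. The median difference, mean of the deficient minus mean of the control percentiles, was -2.52 points for the 29 cartilage matrix genes with a peak, -0.43 for the 27 regulators with a peak and -0.26 for all genes. A value of -0.43 is what a gene at the tied score in every list gives. Of the 29 cartilage genes, 1 (the collagen processing gene Pcolce2) had both deficient values above both controls and 8 had both below, and of the 27 regulators 0 and 7. Many of these gaps were small. Among the 8 they ran from 0.012 points at Scrg1, where 3 of 4 lists are at the tied score, to 33.6 at Matn4, and only Matn4 passed 10. Among the 7 they ran from 0.051 points at Runx3 to 12.2 at Pax9. Col2a1 among the 8 and Cbfb among the 7 also had 3 of 4 lists at the tied score. Their gaps, 2.17 and 0.839 points, therefore carry no information. Over all genes with a peak, 1383 (8.55%) had both above and 1338 (8.27%) both below.

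Over all genes, the 10 widest gaps of the strongest peak in favour of the deficient lists were at Kncn, Ppp1r14a, Pla2g2f, Dleu7, Ramp1, Cacna1b, Otog, Vmn2r73, Ccdc60 and Tmem211. At Ppp1r14a, an inhibitor of myosin phosphatase, the percentiles were 98.6 (Sox9null) and 94.6 (Sox9cKO), against 55.4 (control E11.5) and 37.2 (control E12.5). Both deficient lists were at their tied top value there and both controls in the middle of the ranking. At Ramp1, a receptor activity-modifying protein gene, they were 51.9 (Sox9null) and 38.2 (Sox9cKO), against 12.0 (control E11.5) and 0 (control E12.5). The 10 widest in favour of the controls were at D7Ertd443e, Matn4, Chrdl2, Rbpjl, Hsd17b13, E330034G19Rik, Ccdc185, Pid1, Kcnt2 and Smim23, of which Matn4 and Rbpjl are neighbours that share peaks. Chrdl2, a chordin-like BMP antagonist, had 0 (Sox9null) and 4.65 (Sox9cKO), against 45.5 (control E11.5) and 36.9 (control E12.5).

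To the right of Sox9, between 402 and 658 kb from the gene, 4 regions ranked higher in both controls by at least 10 points. The limits are the positions of the outermost of these 4 regions. The gene itself (chr11:112782210-112787757) was marked in all 4 lists, as part of 1 joined region. In the stretch between Sox9 and Slc39a11 there were 22 regions, of which 2 were higher in both deficient lists and 1 in both controls, and over Slc39a11 itself there were 15, of which 0 and 3 were ranked apart, where all regions gave 1.69% and 1.33%. The leftmost of these 4 control-higher regions (chr11:113183429-113185080), 402 kb from the left end of Sox9, had no peak in either complete deficient list, against percentiles 46.8 (control E11.5) and 33.5 (control E12.5). Inside Slc39a11, at 511 kb (chr11:113291503-113295219), the values were 8.30 (Sox9null) and 0 (Sox9cKO), against 49.1 (control E11.5) and 56.4 (control E12.5). At 658 kb (chr11:113439179-113440880) there was again no peak in either complete deficient list, against 36.4 (control E11.5) and 35.2 (control E12.5). The fourth, at 501 kb, had 0 in both deficient lists, against 31.1 (control E11.5) and 23.2 (control E12.5). Regions at 440 and 473 kb were marked only in the controls as well, the first at 4.32 (control E11.5) and 18.7 (control E12.5), the second at 22.6 (control E11.5) and 4.49 (control E12.5). Other regions among them did not separate the sides. At 419 kb the percentiles were 38.1 (Sox9null) and 49.6 (Sox9cKO), against 56.9 (control E11.5) and 36.3 (control E12.5). At 671 kb they were 35.5 (Sox9null) and 29.7 (Sox9cKO), against 29.6 (control E11.5) and 4.28 (control E12.5), just in favour of the deficient lists, and at 677 and 804 kb the list titled Sox9cKO alone was marked.

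Closer to Sox9, and in the desert to its left, more regions ranked higher in the deficient lists than in the controls, in small counts. Of all regions, 1.69% and 1.33% were ranked apart, and 7.48% and 5.93% had any gap above 0. Between 91 and 366 kb to the right, 4 regions ranked higher in both deficient lists than in both controls, 2 of them by at least 10 points. These limits too were set by the regions counted, so the split into a near and a far part was not tested. At 196 kb (chr11:112976667-112979451) the percentiles were 56.5 (Sox9null) and 54.3 (Sox9cKO), against 42.3 (control E11.5) and 28.1 (control E12.5). In the left desert, 4 of 40 regions were ranked apart in favour of the deficient lists and 1 in favour of the controls, and with any gap above 0 these were 6 and 1. The widest of the 4, at -219 kb (chr11:112561980-112563451), had 16.5 (Sox9null) and 30.4 (Sox9cKO), against 0 (control E11.5) and 1.41 (control E12.5). The control-higher one lies 64.8 kb from Sox9 (chr11:112716450-112718464), at 0 (Sox9null) and 19.0 (Sox9cKO), against 50.1 (control E11.5) and 38.8 (control E12.5).

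**Figure D5:**
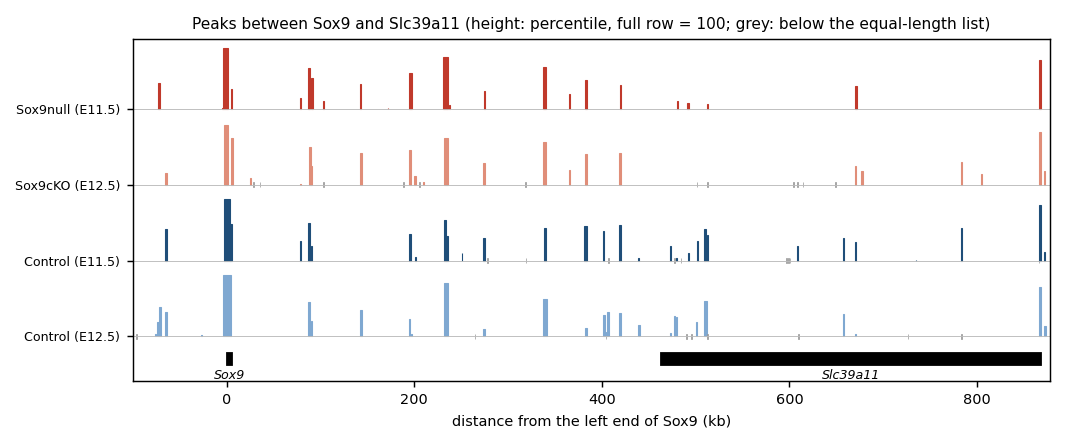
Peaks of the 4 lists (rows) around Sox9 and Slc39a11 (x axis, distance from the left end of Sox9 in kb, black bars for the genes). Box heights are percentiles with a full row as 100 and grey marks are peaks below the top 28419, and at 402, 511 and 658 kb both control rows carry a box where the deficient rows carry none or one of at most 8.30.

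Regions higher in both Sox9-deficient lists lay near genes of several kinds. The widest gap was in Thsd4, a microfibril-associated ADAMTS-like gene (chr9:60211956-60213977), at 47.7 (Sox9null) and 49.4 (Sox9cKO), against 0 in both controls, whose complete lists had peaks there with scores of 62.5 (E11.5) and 56.5 (E12.5). The next was 6.54 kb from Nfil3, a bZIP repressor gene (chr13:52989414-52991161), at 41.8 (Sox9null) and 46.4 (Sox9cKO), against 0 in both controls. A region in the guidance gene Slit3 (chr11:35275210-35277586) had 39.8 (Sox9null) and 46.1 (Sox9cKO) and no peak in either complete control list. Also without any control peak were a region 47.6 kb from the SOX gene Sox11 (chr12:27390277-27392548), at 37.9 (Sox9null) and 36.8 (Sox9cKO), and one in Scube1, at 36.5 and 42.5 in the lists titled Sox9null and Sox9cKO. A region between Hibadh and Evx1 (chr6:52475656-52477711), 215 kb from the HoxA gene Hoxa13, had 36.7 (Sox9null) and 39.0 (Sox9cKO), again with no peak in either complete control list. Of the 15 widest gaps on this side, 6 had no peak in either complete control list, 5 lay in gene bodies, 9 within 100 kb of a gene, and 1 covered an annotated start, that of the uncharacterised gene Gm26812. Others of the 15 were nearest to Lrmda, Hsd17b3, Pgpep1l, Ccdc60, Ribc2, Tbc1d7 and Ccdc34.

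Among limb patterning genes, Prrx2 had a deficient-higher region and Lmx1b a control-higher one. The region near Prrx2, a homeobox gene of limb mesenchyme, stood at 28.2 (Sox9null) and 17.4 (Sox9cKO), against 0 in both controls. That in Lmx1b, the dorsal identity gene, stood at 54.6 (Sox9null) and 53.6 (Sox9cKO), against 69.7 (control E11.5) and 68.8 (control E12.5). The widest gap in the tendon list was a control-higher region 18.7 kb from Osr2, at 10.02 (Sox9null) and 0 (Sox9cKO), against 49.96 (control E11.5) and 44.5 (control E12.5).

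Ranked-apart regions were mostly away from gene starts, on both sides. Where the promoter table covers the chromosome, 63 of 629 deficient-higher regions and 46 of 497 control-higher regions (9.26%) touched a promoter window (250 bases before to 50 after an annotated start), against 28.8% of all regions and 18.8% of those whose highest percentile lay between 30 and 60. The ranked-apart regions were weaker than that last group, with median highest percentiles of 37.0 (deficient-higher) and 38.8 (control-higher), against 44.3. Past the eased threshold the medians were 42.7 and 43.7. There 25 of 161 deficient-higher regions (15.5%) and 12 of 133 control-higher regions (9.02%) touched a promoter window. Gene bodies held 270 (42.9%) of the deficient-higher and 246 (49.5%) of the control-higher ranked-apart regions, against 37.9% of all. Median lengths of the ranked-apart regions were 1688 bp and 1852 bp, against 1797 bp for all regions. Of 74 promoter windows in deficient-higher regions, 7 (9.46%) held AACAAT and 14 (18.9%) ACAAAG on either strand, and of 50 in control-higher regions 3 held AACAAT and 13 (26.0%) ACAAAG, against 10.7% and 18.7% of 32851 windows. The RUNX core TGTGGT was in 17 (23.0%) and 7 (14.0%), against 16.8% of all, the AP-1 motif TGANTCA in 5 (6.76%) and 7 (14.0%), against 7.81%, and the E-box CANNTG in 56 (75.7%) and 32 (64.0%), against 72.3%. Among protein-coding genes the widest gap at a start in favour of the deficient lists was at Gpr176, an orphan receptor gene, with 44.1 (Sox9null) and 33.7 (Sox9cKO), against 0 in both controls. Its window, shown for comparison with Sox6 and Chad, holds neither SOX core.

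Gpr176 (chr2:118373370-118373669, minus strand): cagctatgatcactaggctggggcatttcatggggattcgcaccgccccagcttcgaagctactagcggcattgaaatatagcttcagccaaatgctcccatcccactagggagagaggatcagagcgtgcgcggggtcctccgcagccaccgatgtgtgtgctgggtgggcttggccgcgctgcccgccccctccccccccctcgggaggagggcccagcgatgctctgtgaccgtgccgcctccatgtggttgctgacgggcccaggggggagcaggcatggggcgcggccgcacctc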

How the data were processed

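Each list, per the file contents, gives the position of each peak and a score. The score is the authors' own value per peak as deposited, on a scale that no header states, and was used only to rank peaks within a list. The peak names name MACS. The submitters' processing notes name mm10 as build, CASAVA 1.8 and deepTools. For the caller's version and settings, the aligner and the use of input: not given in the sources used here. Depth in reads is unknown, so no interval is given. Of 24 libraries, 20 were not analysed here.

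The top 28419 peaks of each list were ranked with average ranks for ties and joined into regions at 1 bp. Genes were the 21887 protein-coding genes of RefSeq GRCm38.p6, and promoter sequences came from RefSeq. The members and the 14 gene lists were chosen with earlier results of these data known. Named were the 15 regions and 10 genes with the widest gap per side, list genes called on their strongest peak, and any cartilage or regulator gene. Homer2, Bach2 and Gulp1 stand at the thresholds. Prrx2, Lmx1b, Osr2, Gpr176 and the printed promoters were chosen after their values were seen. A few results are not reported here. The promoter table does not cover chromosome 18, left out of the counts by position. There are no replicates, so no test was run. Python 3.11.15, numpy 2.4.6, pandas 2.3.3 and matplotlib 3.10.9 were used. The counting at the fixed thresholds was tested on copies of the E11.5 control list with altered scores and planted differences. The weaker rules and the joining of peaks with unlike edges were not tested in this way.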

Additional observations from a re-analysis of the deposited data

How the results depend on the processing

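No paired analysis was possible because each group has 1 library, the titles carry no replicate numbers, and the titles and deposited names disagree on which deficient list shares a stage with which control. Of 116 recomputed counts, 48 stayed within 1.5 times the reported one and 68 did not. Joining peaks within 1000 bp or at 50% of the shorter peak, and autosomes alone, moved no reported count by more than that.

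Under the fixed thresholds (0 regions high in both deficient lists and 2 in both controls), ranking complete lists gave 5 and 17, and ranking by width gave 36 and 26. Asking for percentile 75 gave 0 for the controls, as did absence from complete lists. Past the eased threshold the counts for absence from complete lists were 17 and 17, width gave 258 for the deficient side, and complete lists gave 323 for the controls. Of ranked-apart regions, 1025 were control-higher with complete lists. Ranking by width gave 1 deficient-higher and 7 control-higher regions at cartilage matrix genes, and 4 and 8 at regulators. With complete lists these were 0 and 9, and 3 and 13. The 63 and 57 genes became 29 and 101 with complete lists, 137 and 147 by width, and 1383 and 1338 with any gap above 0, and 27 were deficient-higher with 100 kb on each side.

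Leaving out 1 list in turn asks less of a region, so counts grow by construction. The deficient-higher and control-higher counts ranged over 29 to 90 and 21 to 168 at the fixed thresholds, 669 to 1116 and 527 to 1422 at the eased one, and 2382 to 4054 and 1725 to 4512 for ranked-apart regions. Genes ranged over 270 to 710 deficient-higher and 194 to 697 control-higher, and control-higher regions over 11 to 40 at cartilage matrix genes and 14 to 47 at regulators. The number and rank of peaks also depend on sequencing depth, which is unknown.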

Other observations

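Among the 136 regions past the eased threshold in favour of the controls were the following, picked by gene after their values were seen. A region in Chst3, a chondroitin sulphotransferase gene (chr10:60201607-60204122), had no peak in either complete deficient list, against percentiles 30.1 (control E11.5) and 66.3 (control E12.5). One in Smoc2, a matricellular protein gene, was unmarked among the top peaks of both deficient lists, against 30.4 (control E11.5) and 39.5 (control E12.5). A region 27.7 kb from Sox10, a glial gene of the same SOX group as Sox9, was likewise unmarked among them, against 34.7 (control E11.5) and 50.02 (control E12.5). In Notch1 a region stood at 0 (Sox9null) and 19.6 (Sox9cKO), against 51.3 (control E11.5) and 45.2 (control E12.5). These 4 regions form no group and were not tested.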
